A study of Mus musculus with 6 samples.

Results

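Collagens of types II, IX, XI and XXVII form the fibrils of cartilage, and their genes were followed in the tibial growth plate of 3 mouse genotypes. Every non-control probe whose RefSeq accession belongs to Col2a1, Col9a1, Col9a2, Col9a3, Col11a1, Col11a2 or Col27a1 was taken. That gave 8 probes for the 7 genes, of 26582 probes that could be named for 20145 genes and 55681 non-control probes in all. Col9a1 had 2 probes and the other genes 1 each.

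The growth plate, the cartilage at which a long bone grows in length, was cut from the tibia by laser microdissection. The animals were untreated male C57BL/6J mice aged 4 weeks, with 2 arrays per genotype. ATF6aKO mice are labelled as knockouts of ATF6a (gene Atf6), ATF6bKO mice as knockouts of ATF6b (gene Atf6b), and WT mice as wild type. The study's title asks what part these stress transducers of the endoplasmic reticulum (ER) play in the growth of long bones, and the labels give neither the deleted exons nor whether an array holds 1 animal or a pool.

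In cartilage, type II collagen makes the bulk of the fibril. Type XI collagen lies in the fibril's core, where it starts fibril assembly and limits its thickness, and type IX collagen sits on the fibril's surface as a FACIT, a fibril-associated collagen with interrupted triple helices. All of them are large secreted proteins whose chains are folded, hydroxylated and glycosylated in the ER before export.

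All 8 probes were well above background on all 6 arrays and none was saturated. Across the arrays 86.9% to 96.7% of non-control spots were well above background. The 4 knockout arrays shared 1 slide and scan and were read in the red channel, and the WT arrays lay on another slide with a single channel, so knockout against WT cannot be told apart from slide and channel. Over the 24907 probes kept for testing, knockout arrays correlated with each other at r of 0.961 to 0.985 and with WT arrays at 0.823 to 0.889. Whether the arrays of 1 genotype are separate animals is not stated, so p-values reflect the spread of these arrays alone, and that spread may be technical. Atf6 differed by -0.15 ± 0.17 log2 units between ATF6aKO and WT (SE, limma adjusted p = 0.50), and Atf6b by -0.54 ± 0.21 between ATF6bKO and WT (limma adjusted p = 0.0834); the position of these probes relative to the deletions is not given, so they do not check the labels. Of 7 growth plate markers (Col2a1, Acan, Matn1, Hapln1, Comp, Sox9 and Col10a1), 6 were well above background on every array, and Sox9 was not on the WT arrays. The knockout columns of the authors' deposited table follow the green channel and not the labelled red one. By the table's values 6 of the 8 probes lay lower in ATF6aKO than in WT where the red channel placed them higher, and 5 of the 8 likewise in ATF6bKO. In green, 2 and 1 of the 8 probes were well above background on the ATF6aKO arrays, and 1 and 0 on the ATF6bKO arrays. Unless that table is named, every direction against WT sets the red channel of the knockouts against the only WT channel. The file headers name that WT channel green.

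Against WT, cartilage collagens were mostly higher in ATF6aKO. Of the 8 probes 7 rose and 1 fell at a limma adjusted p below 0.05, beside 20.1% of all 24907 probes that rose and 21.8% that fell (41.9% either way). Without ATF6aKO replicate 1, or without ATF6aKO replicate 2, 5 of the 8 passed. The median log2 difference was 2.94 over the 8 probes and -0.02 over all probes. In ATF6bKO 4 probes rose, 1 fell and 3 did not pass, beside 16.6% of all probes that rose and 19.9% that fell (36.5% either way), with medians of 1.38 over the 8 probes and -0.05 over all. The arrays did not overlap between ATF6aKO and WT for 7 probes that were higher and 1 that was lower, beside 34.6% and 38.3% of all probes (72.9% in all). They did not overlap between ATF6bKO and WT for 5 that were higher and 1 that was lower, beside 33.1% and 39.4% of all probes (72.5% in all). The gene that fell in both knockouts was Col11a2.

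Col2a1 encodes the only chain of type II collagen. Its spot intensity was 33798 and 36134 on the ATF6aKO arrays, 20580 and 7457 on the ATF6bKO arrays, and 2924 and 2878 on the WT arrays. After normalisation the log2 intensity was 15.06 and 15.36 on the ATF6aKO arrays, 14.51 and 13.25 on the ATF6bKO arrays, and 10.88 and 11.15 on the WT arrays. Every knockout array thus lay above both WT arrays, the ATF6aKO arrays lay above the ATF6bKO arrays, and the ATF6bKO arrays lay further apart than those of the other genotypes. Col2a1 was 18.3-fold higher in ATF6aKO than in WT (log2 difference 4.19 ± 0.37, SE, limma adjusted p = 0.000601), the rise ranked 4 of 24907 probes. It was 7.26-fold higher in ATF6bKO than in WT (2.86 ± 0.37, limma adjusted p = 0.00182), a fold that became 4.69 without ATF6bKO replicate 1 and 11.2 without ATF6bKO replicate 2. As the tissue is a mixture of cells, a change in the number of chondrocytes and a change in the RNA of each cannot be told apart.

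**Figure D1:**
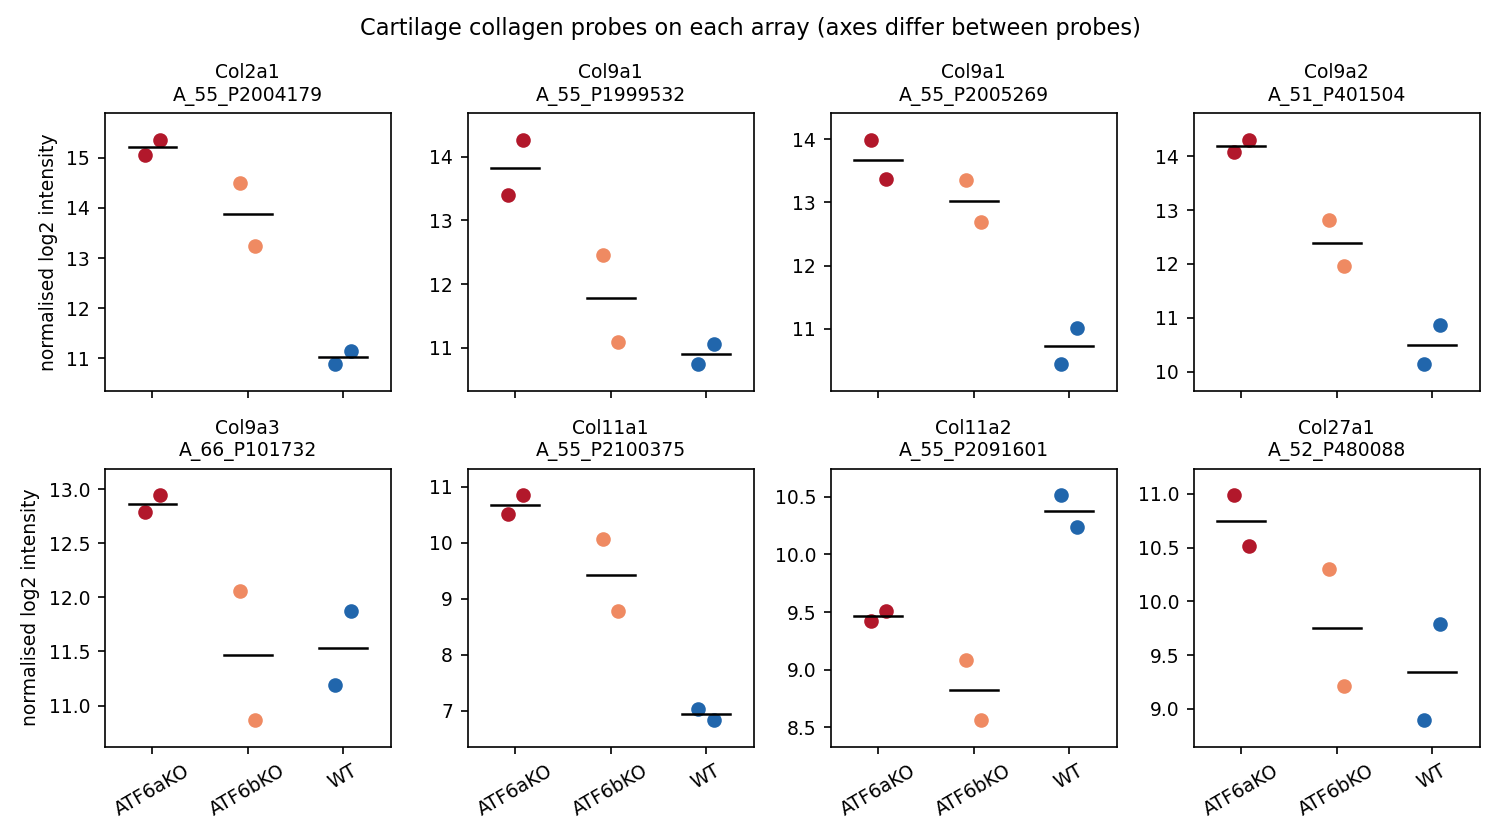
Normalised log2 intensity of the 8 collagen probes on each array, with ATF6aKO, ATF6bKO and WT from left to right; points are single arrays and bars are the means of the 2 arrays. Col2a1 lay at 15.06 and 15.36 on the ATF6aKO arrays, 14.51 and 13.25 on the ATF6bKO arrays, and 10.88 and 11.15 on the WT arrays, while Col11a2 was highest in WT.

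The chains of type XI collagen moved in opposite directions. Col11a1, which encodes its first chain, had a spot intensity of 1344 and 1630 on the ATF6aKO arrays, 860 and 318 on the ATF6bKO arrays, and 143 and 91 on the WT arrays. Col11a2, which encodes its second chain, had 634 and 606 on the ATF6aKO arrays, 430.5 and 274 on the ATF6bKO arrays, and 2285 and 1540 on the WT arrays. Neither gene's WT arrays overlapped with any knockout array, Col11a1 being lowest and Col11a2 highest in WT.

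Col11a1 was 13.3-fold higher in ATF6aKO than in WT (log2 difference 3.74 ± 0.38, SE, limma adjusted p = 0.00074) and 5.59-fold higher in ATF6bKO than in WT (2.48 ± 0.38, limma adjusted p = 0.00294). Without ATF6bKO replicate 1 the second value was 3.58-fold, and without ATF6bKO replicate 2 it was 8.74-fold. With processed signals the folds were 28.9 in ATF6aKO and 10.2 in ATF6bKO. Its WT spots, at 143 and 91, lay over local backgrounds of 16 and 15. Col11a2 was 1.87-fold lower in ATF6aKO than in WT (-0.90 ± 0.21, limma adjusted p = 0.0129) and 2.92-fold lower in ATF6bKO than in WT (-1.55 ± 0.21, limma adjusted p = 0.00219). The fall in ATF6aKO missed the threshold without ATF6aKO replicate 1 (adjusted p = 0.0578) and without ATF6aKO replicate 2 (adjusted p = 0.0583).

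The 2 genes were also set against each other within each array, which removes any factor common to the whole array. It does not remove an effect of slide or channel that differs between probes, so a shift from WT cannot be told apart from such an effect. Since probes differ in brightness, only the shift between arrays can be read. The log2 intensity of Col11a1 minus that of Col11a2 was 1.08 and 1.33 on the ATF6aKO arrays, 0.98 and 0.21 on the ATF6bKO arrays, and -3.47 and -3.39 on the WT arrays. The shift from WT was 4.64 log2 units in ATF6aKO and 4.03 in ATF6bKO. The corresponding value of Col2a1 minus Col11a2 was 5.63 and 5.85 on the ATF6aKO arrays, 5.42 and 4.68 on the ATF6bKO arrays, and 0.37 and 0.92 on the WT arrays. For both measures the shift from WT was larger than the spread within a genotype, and no knockout array reached the WT values. With 2 arrays against 2, an exact two-sided permutation test of such a value cannot go below p = 0.333, so none is given.

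**Figure D2:**
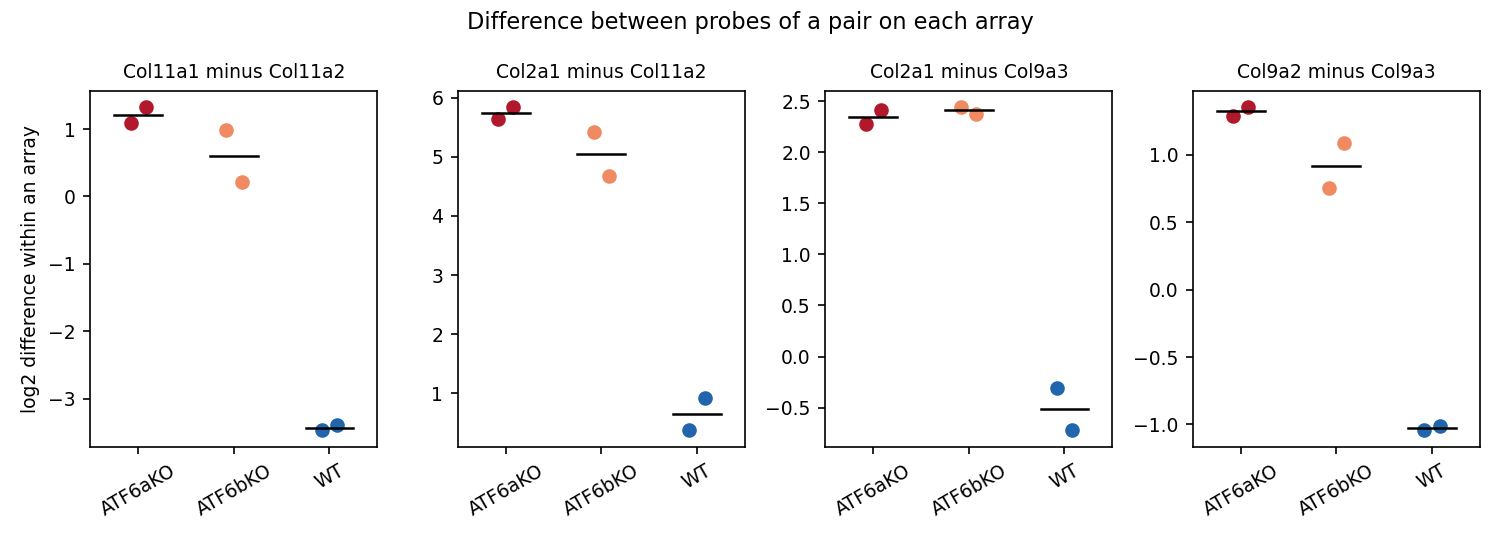
Difference in normalised log2 intensity between 2 collagen probes of the same array, for each pair named on the plot, with ATF6aKO, ATF6bKO and WT from left to right; points are single arrays. The Col11a1 minus Col11a2 value lay at 1.08 and 1.33 in ATF6aKO and at -3.47 and -3.39 in WT; only shifts between arrays can be read, since probes differ in brightness.

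The promoters of these oppositely moving genes, with that of Col9a2 as another gene that rose in both knockouts, are shown for the 250 bases before the annotated start (RefSeq, GRCm38.p6, all on the plus strand). The windows are chr3:114030290-114030539 for Col11a1, chr17:34038888-34039137 for Col11a2 and chr4:121039316-121039565 for Col9a2. Capitals mark the motif matches listed after the sequences, a match on the minus strand being printed as its reverse complement.
Col11a1: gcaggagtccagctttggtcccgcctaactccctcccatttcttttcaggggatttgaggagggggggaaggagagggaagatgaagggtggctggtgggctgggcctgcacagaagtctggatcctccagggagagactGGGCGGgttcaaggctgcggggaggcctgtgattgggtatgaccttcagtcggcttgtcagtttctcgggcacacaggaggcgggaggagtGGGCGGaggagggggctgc
Col11a2: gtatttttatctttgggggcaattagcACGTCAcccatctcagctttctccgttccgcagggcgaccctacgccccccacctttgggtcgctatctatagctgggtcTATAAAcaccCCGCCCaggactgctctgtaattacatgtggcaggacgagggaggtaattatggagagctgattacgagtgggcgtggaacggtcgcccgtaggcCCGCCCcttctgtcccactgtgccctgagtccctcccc
Col9a2: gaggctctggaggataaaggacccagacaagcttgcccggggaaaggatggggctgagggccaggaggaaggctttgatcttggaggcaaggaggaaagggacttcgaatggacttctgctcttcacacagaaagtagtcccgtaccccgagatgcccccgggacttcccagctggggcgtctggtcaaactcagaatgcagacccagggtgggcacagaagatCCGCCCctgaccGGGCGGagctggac
The motifs searched on both strands were the SOX cores AACAAT and ACAAAG, the TATA box TATAAA, the GC box GGGCGG, the ATF core TGACGT and the ER stress response element (ERSE). Promoter windows were found for 5 of the 7 genes, giving 6 windows because Col9a1 has 2 starts; the promoters of Col2a1 and Col9a3 were not analysed here. Of the 6 windows 4 held a GC box, which 32.7% of all 32851 promoter windows of this length hold. The Col11a2 window held the TATA box (in 12.4% of all windows) and the ATF core (in 6.47% of all windows), and the other member windows held neither. No member window held AACAAT (in 9.42% of all windows), ACAAAG (in 16.5%) or the ERSE (in 0.113%). No marked matches overlapped each other, and a match describes letters only, not binding.

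Col27a1 encodes the chain of type XXVII collagen, a fibrillar collagen of cartilage known from the zone where it gives way to bone. Its spot intensity was 1876 and 1279 on the ATF6aKO arrays, 997 and 427 on the ATF6bKO arrays, and 693 and 1117 on the WT arrays. After normalisation the log2 intensity was 10.98 and 10.52 on the ATF6aKO arrays, 10.30 and 9.21 on the ATF6bKO arrays, and 8.90 and 9.79 on the WT arrays. Both ATF6aKO arrays lay above all others, and ATF6bKO replicate 2 lay between the WT arrays. Col27a1 was 2.65-fold higher in ATF6aKO than in WT (log2 difference 1.41 ± 0.41, SE, limma adjusted p = 0.028). This call was lost without ATF6aKO replicate 1 (adjusted p = 0.142), without ATF6aKO replicate 2 (0.0785) or without WT replicate 1 (0.0622). Between ATF6bKO and WT the difference was 0.41 ± 0.41 (limma adjusted p = 0.462), within the spread of the arrays.

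The chains of type IX collagen form 1 molecule together, and their genes differed from WT by unequal amounts that were not tested against each other. Col9a2 had a spot intensity of 16394 and 17566 on the ATF6aKO arrays, 6126 and 2996 on the ATF6bKO arrays, and 1756 and 2402 on the WT arrays, so that all 3 genotypes were separate. It was 12.8-fold higher in ATF6aKO than in WT (log2 difference 3.68 ± 0.33, SE, limma adjusted p = 0.000613) and 3.69-fold higher in ATF6bKO than in WT (1.88 ± 0.33, limma adjusted p = 0.00481).

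The 2 probes of Col9a1 gave like mean differences from WT in ATF6aKO and parted in ATF6bKO. Between the ATF6aKO replicates the probes moved in opposite directions. Probe A_55_P2005269 had a spot intensity of 15215 and 9505 on the ATF6aKO arrays, 8827 and 5116 on the ATF6bKO arrays, and 2160 and 2629 on the WT arrays. Probe A_55_P1999532 had 9953 and 17178 on the ATF6aKO arrays, 4713 and 1583 on the ATF6bKO arrays, and 2670 and 2716 on the WT arrays. On the first probe every knockout array was above WT, while on the second the scanner intensity of ATF6bKO replicate 2 was below WT and came to lie just above it, at 11.10 against 10.74 and 11.06 log2 units in WT, only after normalisation. In ATF6aKO against WT the probes gave 7.73-fold (limma adjusted p = 0.000828) and 7.61-fold (adjusted p = 0.00252) higher levels. In ATF6bKO against WT the log2 difference was 2.29 ± 0.31 on A_55_P2005269 (SE, limma adjusted p = 0.00214) and 0.88 ± 0.45 on A_55_P1999532, which did not pass (adjusted p = 0.163). The second was 0.20 (adjusted p = 0.745) without ATF6bKO replicate 1 and passed without ATF6bKO replicate 2 (1.55, adjusted p = 0.0368), and the mean of both probes passed with all arrays (1.58, adjusted p = 0.00913).

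Col9a3 had a spot intensity of 6400 and 7197 on the ATF6aKO arrays, 3527 and 1348 on the ATF6bKO arrays, and 3587 and 4653 on the WT arrays. The normalised log2 values were 12.78 and 12.94 on the ATF6aKO arrays, 12.06 and 10.87 on the ATF6bKO arrays, and 11.19 and 11.87 on the WT arrays, so that the ATF6bKO arrays lay on either side of WT. Col9a3 was 2.52-fold higher in ATF6aKO than in WT (log2 difference 1.33 ± 0.39, SE, limma adjusted p = 0.0274). That call was lost without ATF6aKO replicate 1 (adjusted p = 0.0874), without ATF6aKO replicate 2 (0.138) or without WT replicate 1 (0.058), and with processed spot signals (0.0513). In ATF6bKO against WT the difference was -0.07 ± 0.39 (limma adjusted p = 0.908).

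Within arrays, Col9a2 minus Col9a3 was 1.29 and 1.36 log2 units in ATF6aKO and 0.75 and 1.09 in ATF6bKO, whereas WT had -1.04 and -1.01. The shift from WT was 2.35 in ATF6aKO and 1.95 in ATF6bKO, larger than the spread within each genotype. It too cannot be told apart from an effect of slide or channel that differs between probes. Col2a1 minus Col9a3 was 2.28 and 2.42 on the ATF6aKO arrays, 2.45 and 2.38 on the ATF6bKO arrays, and -0.30 and -0.72 on the WT arrays. The 4 knockout arrays lay between 2.28 and 2.45 on this measure, while Col2a1 itself lay between 13.25 and 15.36 among them.

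**Figure D3:**
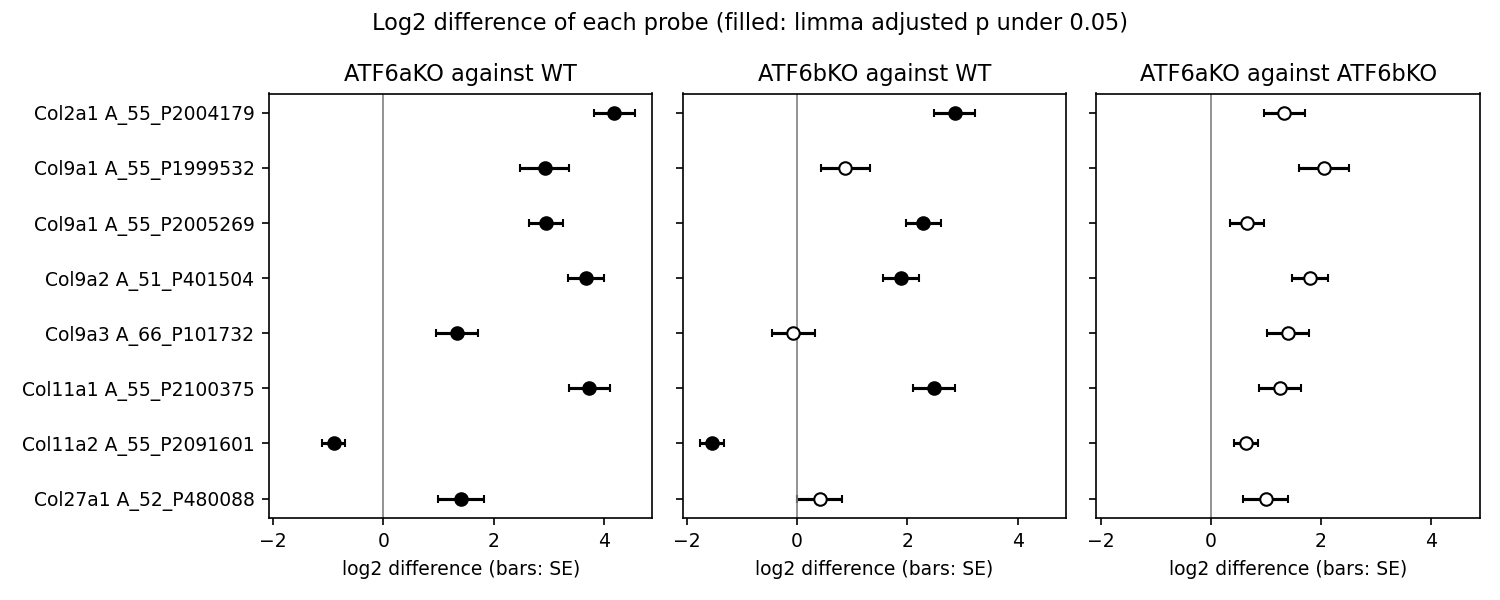
Log2 difference of the 8 collagen probes in ATF6aKO against WT, ATF6bKO against WT and ATF6aKO against ATF6bKO; points are limma estimates and bars their SE. Col2a1 (4.19), Col11a1 (3.74) and Col9a2 (3.68) lay highest in ATF6aKO against WT, and Col11a2 lay below 0 in both comparisons with WT, at -0.90 and -1.55.

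ATF6aKO against ATF6bKO is the comparison made within 1 slide, and there every collagen probe was higher in ATF6aKO but none passed the test. Both ATF6aKO arrays lay in row 1 of that slide and both ATF6bKO arrays in row 2. A difference between these genotypes thus cannot be told apart from an effect of the row. The median log2 difference was 1.29 over the 8 probes and 0.00 over all probes. The arrays of the 2 genotypes did not overlap for any of the 8 probes, all higher in ATF6aKO, while of all probes 20.6% were higher and 16.4% lower without overlap (37.1% in all). The limma adjusted p lay between 0.582 and 0.815 for the 8 probes, and 0% of the 24907 probes were called. At an unadjusted p below 0.05 there were 7 of the 8 probes and 1605 of all probes (6.44%). In a fit of the 4 knockout arrays alone Col9a2 passed (adjusted p = 0.0464) among 29 probes (0.116%). Leaving out either WT array gives the same result for this comparison, since a lone WT array adds no spread, so it is no further check.

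The largest differences between the knockouts were those of Col9a1 probe A_55_P1999532, at 2.05 ± 0.45 log2 units (SE, limma unadjusted p = 0.00207), and Col9a2, at 1.80 ± 0.33 (unadjusted p = 0.000706). The smallest were those of Col11a2, at 0.64 ± 0.21, and Col9a1 probe A_55_P2005269, at 0.66 ± 0.31. Col2a1, Col9a3, Col11a1 and Col27a1 lay between, at 1.33, 1.40, 1.25 and 0.998. Every one of these differences was smallest without ATF6bKO replicate 2 and largest without ATF6bKO replicate 1. They then ranged from 1.37 to 2.73 for A_55_P1999532, 0.70 to 1.96 for Col2a1, 0.80 to 1.99 for Col9a3, 0.61 to 1.89 for Col11a1, 0.45 to 1.54 for Col27a1, 1.37 to 2.23 for Col9a2, 0.32 to 0.99 for A_55_P2005269 and 0.38 to 0.90 for Col11a2. Because both comparisons with WT use the same 2 WT arrays, the likeness of the pattern in ATF6aKO and ATF6bKO is not independent.

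The spread between the 2 ATF6bKO arrays ran the same way for all collagens. All 8 probes were lower in ATF6bKO replicate 2 than in replicate 1, by a median of -1.14 log2 units (range -1.36 to -0.52), while the median over all probes was -0.01. Only 0.293% of all probes lay below that collagen median. In ATF6aKO the replicates differed by a median of 0.19 over the 8 probes and in WT by 0.44. Of all probes 72.1% lay below that collagen median in ATF6aKO and 94.6% in WT. In each of these genotypes 2 of the 8 probes were lower in replicate 2.

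Genes whose profile over the 6 arrays was closest to that of Col2a1 were ranked by the root mean square difference of centred log2 values among 19121 other genes. The closest was Col11a1 (0.24), followed by Ganab (0.39), the catalytic part of the ER glucosidase II, Papss2 (0.40), which makes the sulfate donor for proteoglycans, Susd5 (0.41) and Matn1 (0.44), which encodes the cartilage protein matrilin-1. Col9a2 was at rank 6 (0.44) and Col9a1 at rank 21 (0.60). Col27a1 (1.27), Col9a3 (1.37) and Col11a2 (2.27) were at ranks 1228, 1883 and 17740. The 6 points share the divide of slide and channel between knockouts and WT, so this ranking is a description.

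Other gene lists were counted by the brightest kept probe of each gene, for which the background was 20.3% higher and 22.3% lower in ATF6aKO against WT (42.6% either way of 19122 genes), and 17.3% higher and 20.2% lower in ATF6bKO against WT (37.4% either way). At an unadjusted p below 0.05 it was 52.2% in ATF6aKO against WT, 48% in ATF6bKO against WT and 6.16% in ATF6aKO against ATF6bKO. Of 15 non-collagen proteins of the cartilage matrix 9 rose and none fell in ATF6aKO (median log2 difference 2.07, against -0.03 over all genes). In ATF6bKO 3 rose and 1 fell (median 0.57, against -0.05), and with 1 array left out 2 to 6 rose, the most without ATF6bKO replicate 2. Matn1 was at 12.21 and 12.48 log2 units in ATF6aKO and 10.71 and 9.92 in ATF6bKO, whereas WT had 8.24 and 7.47. Snorc, a cartilage transmembrane proteoglycan, was 8.84-fold higher in ATF6aKO than in WT (limma adjusted p = 0.000878) and 5.75-fold higher in ATF6bKO than in WT (adjusted p = 0.00209). Cnmd, which encodes the blood vessel inhibitor chondromodulin, was 3.65-fold higher in ATF6aKO than in WT (limma adjusted p = 0.00153) and differed by 0.07 ± 0.24 log2 units between ATF6bKO and WT (SE, adjusted p = 0.836). Acan, the large cartilage proteoglycan aggrecan, was 3.07-fold higher in ATF6bKO than in WT (limma adjusted p = 0.0249). This call was lost without ATF6bKO replicate 1 (1.80-fold, adjusted p = 0.0737) or without either ATF6aKO array (0.0519), and without ATF6bKO replicate 2 the fold was 5.26. Comp, a protein that binds types II and IX collagen, differed by 0.73 log2 units between ATF6aKO and WT (limma adjusted p = 0.136). It was singled out with its values known and was the member that fell in ATF6bKO, at -1.13 ± 0.36 log2 units (limma adjusted p = 0.0434). It did not pass without ATF6bKO replicate 2 (-0.56, adjusted p = 0.213), without WT replicate 2 (0.0888) or without either ATF6aKO array (0.0689).

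Of 7 other fibrillar collagen genes none passed limma's test against WT (at an unadjusted p below 0.05, 0 in ATF6aKO and 1 in ATF6bKO), beside 52.2% and 48% of all genes, with medians of -0.27 in ATF6aKO and -0.21 in ATF6bKO. Without WT replicate 2, 3 of them fell in each knockout, and without WT replicate 1, 1 rose in each. Col1a1, a chain of the type I collagen of bone, was at 7.18 and 6.81 log2 units in ATF6aKO and 6.70 and 6.33 in ATF6bKO, whereas WT had 13.65 and 6.74. It was not well above background on ATF6bKO replicate 2, and WT replicate 1 stood apart from the other 5 arrays. Its difference of ATF6aKO from WT was -3.20 log2 units (limma adjusted p = 0.184), and 0.26 without WT replicate 1.

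Of 4 other FACIT genes 3 fell in each knockout, and 1 to 3 with 1 array left out (1 without either array of the knockout compared). Col20a1 was at 8.87 and 8.50 log2 units in ATF6aKO and 9.13 and 9.16 in ATF6bKO, whereas WT had 10.66 and 10.76. It was 4.08-fold lower in ATF6aKO than in WT (limma adjusted p = 0.000601) and 2.95-fold lower in ATF6bKO than in WT (adjusted p = 0.00124). Col22a1 was at 6.96 and 6.73 log2 units in ATF6aKO and 6.54 and 6.88 in ATF6bKO, whereas WT had 9.35 and 7.80. It fell by 1.73 in ATF6aKO (limma adjusted p = 0.0166), by 0.96 without WT replicate 1 and by 2.51 without WT replicate 2, and did not pass without ATF6aKO replicate 1 (0.0614) or ATF6aKO replicate 2 (0.103). Col14a1 fell by 0.78 in ATF6aKO (limma adjusted p = 0.0187) and did not pass without ATF6aKO replicate 1 (0.0655), ATF6aKO replicate 2 (0.0806) or WT replicate 2 (0.083).

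Of 13 network, beaded and transmembrane collagen genes 2 rose and 3 fell in ATF6aKO, and 1 rose and 4 fell in ATF6bKO. With 1 array left out, 1 to 4 rose and 1 to 3 fell in ATF6aKO, and 0 to 3 rose and 1 to 4 fell in ATF6bKO, with the most rising without WT replicate 1, and the fewest falling without ATF6aKO replicate 2 in ATF6aKO and without ATF6bKO replicate 1 in ATF6bKO. Col10a1, the type X collagen that marks hypertrophic chondrocytes, was at 12.29 and 13.87 log2 units in ATF6aKO and 12.48 and 10.74 in ATF6bKO, whereas WT had 9.30 and 8.17. The difference from WT was 4.35 ± 0.69 in ATF6aKO (SE, limma adjusted p = 0.0028) and 2.87 ± 0.69 in ATF6bKO (adjusted p = 0.0153). In ATF6aKO it was 5.13 without ATF6aKO replicate 1 and 3.56 without ATF6aKO replicate 2, and in ATF6bKO it was 3.74 without ATF6bKO replicate 2 and did not pass without ATF6bKO replicate 1 (2.0, adjusted p = 0.097). Col4a2, a chain of the type IV collagen of basement membranes, fell by 1.99 log2 units in ATF6aKO (limma adjusted p = 0.00601) and fell by 1.76 in ATF6bKO (adjusted p = 0.0111). Without WT replicate 1 it fell by 1.34 in ATF6aKO and fell by 1.11 in ATF6bKO, without WT replicate 2 it fell by 2.64 and fell by 2.41, and without ATF6bKO replicate 1 the ATF6bKO call was lost (adjusted p = 0.0779).

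Of the SOX factors that activate Col2a1 and other cartilage genes, 2 of 3 rose in ATF6aKO and 1 of 3 in ATF6bKO (1 to 3 and 0 to 2 with 1 array left out). Sox9 was at 7.48 and 8.23 log2 units in ATF6aKO and 6.71 and 6.27 in ATF6bKO, whereas WT had 6.03 and 6.28. It was not well above background on the WT arrays or on ATF6bKO replicate 2, and was at least 3.26-fold higher in ATF6aKO than in WT (limma adjusted p = 0.00311), a bound that sets the ATF6aKO mean against the WT signal or, where higher, the dimmest signal that counts as well above background on that WT array. Here the WT signals were the higher, so the bound equals the limma estimate (1.71 log2 units) and is no firmer. Sox5 was 1.72-fold higher in ATF6aKO than in WT (limma adjusted p = 0.0333) and 1.93-fold higher in ATF6bKO than in WT (adjusted p = 0.019). The ATF6aKO call was lost when any array other than WT replicate 2 was left out (adjusted p = 0.0593 to 0.153), and the ATF6bKO call was lost without ATF6bKO replicate 1 (0.11), ATF6bKO replicate 2 (0.0717) or WT replicate 1 (0.0553). Sox6 differed from WT by 0.63 ± 0.28 log2 units in ATF6aKO (SE, limma adjusted p = 0.112) and by 0.65 ± 0.28 in ATF6bKO (adjusted p = 0.111). It passed without WT replicate 2 in both (0.85, adjusted p = 0.0493, and 0.87, adjusted p = 0.0481) and without ATF6aKO replicate 1 in ATF6aKO (1.03, adjusted p = 0.0268).

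Among 21 genes for the hydroxylation, folding and glycosylation of procollagen, 8 rose and 3 fell in ATF6aKO (median 0.57), and 3 rose and 3 fell in ATF6bKO (median -0.23). With 1 array left out, 3 to 11 rose and 0 to 3 fell in ATF6aKO, with the fewest rising without ATF6aKO replicate 2 and the fewest falling without ATF6aKO replicate 1. In ATF6bKO 2 to 5 rose and 2 to 7 fell, with the most falling without WT replicate 2. P3h4, a partner of the lysyl hydroxylase that acts on collagen, was at 11.03 and 11.03 log2 units in ATF6aKO and 10.69 and 9.17 in ATF6bKO, whereas WT had 8.07 and 7.49. Fkbp10, a collagen chaperone of the ER, was at 11.12 and 11.11 on the ATF6aKO arrays, 10.85 and 9.38 on the ATF6bKO arrays, and 8.32 and 7.69 on the WT arrays. Both genes were separate from WT on every knockout array, and like the collagens they were lower in ATF6bKO replicate 2 than in replicate 1.

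P3h4 was 9.49-fold higher in ATF6aKO than in WT (limma adjusted p = 0.00174) and 4.43-fold higher in ATF6bKO than in WT (adjusted p = 0.00904), and Fkbp10 was 8.64-fold higher in ATF6aKO (adjusted p = 0.0019) and 4.32-fold higher in ATF6bKO (adjusted p = 0.00904). In ATF6bKO the folds were 2.61 for P3h4 and 2.60 for Fkbp10 without ATF6bKO replicate 1, and 7.52 for P3h4 and 7.19 for Fkbp10 without ATF6bKO replicate 2. Pdia3, a disulfide isomerase of the ER, was 6.75-fold higher in ATF6aKO than in WT (limma adjusted p = 0.00414), a fold that became 10.9 with WT replicate 1 left out and 4.17 with WT replicate 2 left out. Serpinh1, the procollagen chaperone HSP47, was singled out with its values known; it was 7.82-fold higher in ATF6aKO than in WT (limma adjusted p = 0.00691) and differed by 1.39 ± 0.60 log2 units between ATF6bKO and WT (SE, adjusted p = 0.105). Its ATF6aKO fold was 12.4 with WT replicate 1 left out and 4.92 with WT replicate 2 left out, and the call was lost without ATF6aKO replicate 2 (adjusted p = 0.0534). Its ATF6bKO difference passed without ATF6bKO replicate 2 (2.30, adjusted p = 0.0283), without WT replicate 1 (2.06, adjusted p = 0.0112) and with the replicate number as a block (adjusted p = 0.0373), and was 0.49 without ATF6bKO replicate 1 and 0.73 without WT replicate 2. In the other direction, Plod3, a lysyl hydroxylase that also adds sugars to collagen, was 4.48-fold lower in ATF6bKO than in WT (limma adjusted p = 0.0065), a fold that became 2.89 with WT replicate 1 left out and 6.95 with WT replicate 2 left out, and P3h3, a prolyl hydroxylase family member, was 2.39-fold lower in ATF6bKO than in WT (adjusted p = 0.00308).

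Of 17 genes for export, propeptide removal and crosslinking, 1 rose and 4 fell in each knockout, and with 1 array left out 1 to 3 rose and 3 to 5 fell in ATF6aKO, and 0 to 2 rose and 2 to 6 fell in ATF6bKO. The gene that rose in both was Pcolce2, an enhancer of procollagen C-propeptide removal, at 12.11 and 12.22 log2 units in ATF6aKO and 11.74 and 9.99 in ATF6bKO, whereas WT had 9.05 and 9.29. It was 7.94-fold higher in ATF6aKO than in WT (limma adjusted p = 0.00292) and 3.23-fold higher in ATF6bKO than in WT (adjusted p = 0.0284). The ATF6bKO call was lost without ATF6bKO replicate 1 (1.76-fold, adjusted p = 0.0588) or without either ATF6aKO array (0.0588), and without ATF6bKO replicate 2 the fold was 5.90. Loxl1, a lysyl oxidase that crosslinks matrix proteins, was 2.37-fold lower in ATF6aKO than in WT (limma adjusted p = 0.00213) and 2.37-fold lower in ATF6bKO than in WT (adjusted p = 0.0026). Adamts2, which removes the N-propeptide of procollagen, fell by 1.06 log2 units in ATF6aKO and fell by 0.91 in ATF6bKO (limma adjusted p = 0.00372 and 0.00776), a call lost in ATF6bKO without ATF6bKO replicate 1 (adjusted p = 0.0567).

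Of 6 collagen receptor genes 1 rose and 3 fell in each knockout, and with 1 array left out 1 to 2 rose in each, 1 to 2 fell in ATF6aKO and 1 to 3 fell in ATF6bKO. Itga1, a collagen-binding integrin subunit, was 2.53-fold higher in ATF6aKO than in WT (limma adjusted p = 0.00247) and 2.68-fold higher in ATF6bKO than in WT (adjusted p = 0.00242). Ddr2, a receptor tyrosine kinase for fibrillar collagen, was 2.27-fold lower in ATF6aKO than in WT (limma adjusted p = 0.00597) and 2.16-fold lower in ATF6bKO than in WT (adjusted p = 0.00878), and the ATF6bKO call was lost without ATF6bKO replicate 2 (adjusted p = 0.0629). Between ATF6aKO and ATF6bKO none of the 86 genes of these lists passed limma's test in the fit of all 6 arrays. At an unadjusted p below 0.05 there were 26 of them, among them 9 of the 15 non-collagen matrix genes and 11 of the 21 hydroxylation and folding genes, beside 6.16% of all 19122 genes. In the fit of the 4 knockout arrays alone, Matn1 and Cnmd passed (limma adjusted p = 0.0464 for each), as Col9a2 did. The median difference was 1.49 for the non-collagen matrix list and 1.0 for the hydroxylation and folding list.

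**Figure D4:**
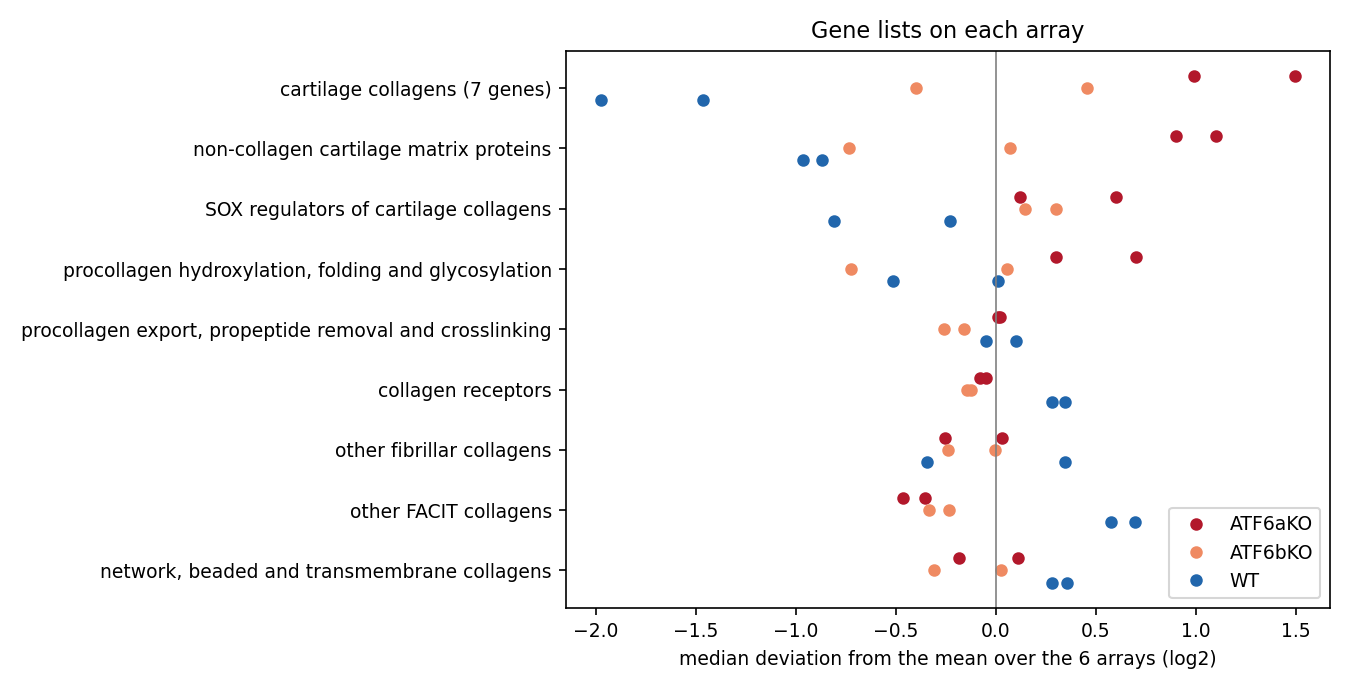
Median, over the genes of each list, of the deviation of normalised log2 intensity from the gene's mean over the 6 arrays, with a point for each array and ATF6aKO above ATF6bKO above WT within a list; the line marks 0. The 7 cartilage collagens lay at 1.5 and 0.99 on the ATF6aKO arrays, 0.45 and -0.40 on the ATF6bKO arrays, and -1.97 and -1.47 on the WT arrays, while the genotypes overlapped for the other fibrillar collagens.

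Markers of some other cell types differed between the arrays that carry these results. The counts below stand beside 20.3% of all 19122 genes that rose and 22.3% that fell in ATF6aKO against WT. In ATF6bKO against WT 17.3% rose and 20.2% fell. The summed normalised intensity of 8 endothelial markers was 1869 to 2155 in ATF6aKO and 2052 to 2066 in ATF6bKO, whereas WT had 4114 to 4368, and 5 of them fell in ATF6aKO and 3 in ATF6bKO. The sum of 5 red cell markers was 869.95 to 969.9 in ATF6aKO and 954 to 985 in ATF6bKO, whereas WT had 5319 to 30562, with 3 lower and 1 higher in each knockout. The sum of 7 osteoblast and osteocyte markers was 3626 to 4194 in ATF6aKO and 1940 to 2475 in ATF6bKO, whereas WT had 2412 to 92388, the highest being WT replicate 1, and 2 of them fell in each knockout (5 without WT replicate 2).

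Of 7 skeletal muscle markers 2 rose and 2 fell in each knockout, beside the shares of all genes just given. Of 7 osteoclast and macrophage markers 1 rose and 1 fell in ATF6aKO and 1 rose in ATF6bKO, and none of 6 tendon and perichondrium markers passed limma's test (0 at an unadjusted p below 0.05 in either knockout, beside 52.2% of all genes in ATF6aKO and 48% in ATF6bKO). Without WT replicate 2, 2 of these 6 fell in ATF6aKO and 1 in ATF6bKO. With 1 array left out, 3 to 5 endothelial markers fell in ATF6aKO and 1 to 5 in ATF6bKO, 0 to 3 osteoclast and macrophage markers fell in each knockout, and of the muscle markers 1 to 2 rose and 1 to 3 fell in ATF6aKO and 0 to 3 rose and 0 to 3 fell in ATF6bKO. In the same terms the sum of the 7 cartilage collagens was 78882 to 84637 in ATF6aKO and 23565 to 48072 in ATF6bKO, whereas WT had 8814 to 12150. Defining markers of blood vessels (Pecam1) and red cells (Slc4a1) were well above background on all 6 arrays, and none was at 0. Without WT replicate 1, which had the highest bone and red cell sums, 6 of the 8 collagen probes passed in ATF6aKO against WT and 5 in ATF6bKO against WT. The part of these cell types in the collagen differences was not tested.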

How the data were processed

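RNA from laser-microdissected growth plate was amplified, labelled as cDNA with Cy5 and hybridised to Agilent mouse arrays, per the labels' protocols. The scanner files deposited for each array hold spot intensity; the submitters' processing notes name Agilent Feature Extraction 10.7.1.1. They give the median spot intensity, which replaces the mean signal named in the design. The authors' deposited table holds log2 values. Its differences between arrays follow the green processed signal (r of at least 0.998, over 1557 to 2560 probes for the knockout columns). Its median was 0.2 and 0.1 in the ATF6aKO columns, 0 and 0.231 in the ATF6bKO columns, and -0.5 in each WT column. How it was centred is unknown, and it served only as an alternative.

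The red channel was used for knockouts and the only channel, named green in the file headers, for WT. In R 4.3.3 with limma 3.58.1, signals were background-corrected (normexp, offset 50) and logged to base 2, outlier spots (288 probes) and controls were removed, and arrays were quantile normalised. Symbols came from RefSeq accessions in a gene table of assembly GRCm38.p6; 29099 probes had no name. The array design uses another build, so no probe coordinates are given. Probes were kept that exceeded background clearly on each array of 1 or more genotypes (24907, for 19122 genes). The 3 genotypes were fitted together with lmFit and eBayes, with Benjamini-Hochberg adjustment over all kept probes and a threshold of 0.05. Every member probe is named; from each other list at most 3 genes of smallest p per comparison, unless stated. The 5 genes closest to Col2a1 are named. Genes and lists were chosen with earlier results of these data known. The number of arrays limits the precision. The procedure was tested on simulated data. Alternatives changed the scaling, signal, filter, variance model, samples, probe summary and block.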

Additional observations from a re-analysis of the deposited data

Results flagged for a closer look

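The knockout arrays also carry a green channel, which no sample's labels name and which no comparison used. Between 8.45% and 12.5% of non-control spots were well above background in it. Among the collagen probes, Col2a1 was well above background in green on ATF6aKO replicate 1 (processed signal 12.1), ATF6aKO replicate 2 (10.9) and ATF6bKO replicate 1 (12.2), and Col9a2 on ATF6aKO replicate 1 (9.45). There was no control sample for this channel, and its source was not tested.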

How the results depend on the processing

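Slide, channel and scan cannot be told apart from knockout against WT, 2 arrays per genotype limit every spread, and all 8 probes were well above background, the dimmest being Col11a1 on the WT arrays, whose fold moved with processed signals. In ATF6aKO against ATF6bKO, genotype cannot be told apart from the row of the slide. Of the 8 probes, 8 passed in ATF6aKO against WT, 5 in ATF6bKO against WT and 0 in ATF6aKO against ATF6bKO. With the replicate number as a block the counts were again 8, 5 and 0. The labels do not say what a replicate number shares. Replicate deviations correlated at -0.15 (ATF6aKO and ATF6bKO), -0.07 (ATF6aKO and WT) and 0.20 (ATF6bKO and WT), which cannot show whether the numbers pair the arrays. Leaving out 1 array gave 5 to 8, 5 to 6 and 0 to 1 probes. In ATF6aKO against WT the count was 5 without ATF6aKO replicate 1 or 2, where the lone array is taken to vary as the other genotypes do. The fit of the 4 knockout arrays alone called 1 probe. Trended and robust variance lost Col9a3 (adjusted p = 0.0738) and Col27a1 (0.0694) in ATF6aKO against WT, and outside the collagens Col22a1 (0.0598) and Serpinh1 (0.0617) there, and Acan (0.0982), Comp (0.105), Col10a1 (0.113) and Pcolce2 (0.105) in ATF6bKO against WT. The Comp call in ATF6bKO was also lost with 75th percentile scaling (limma adjusted p = 0.052), processed signals (0.0747) and the replicate number as a block (0.0631). Under 75th percentile scaling the median of all probes moved from -0.02 to 0.16 in ATF6aKO and from -0.05 to 0.18 in ATF6bKO, and calls split into 6864 higher and 4460 lower in ATF6aKO (as reported, 5002 and 5433) and 6359 higher and 3776 lower in ATF6bKO (as reported, 4126 and 4958); the collagens kept their directions.

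By the authors' deposited log2 table, 5 of 8 probes passed in ATF6aKO against WT, 1 of them higher, and 5 of 8 in ATF6bKO against WT, 0 of them higher (as reported, 4 higher). There the differences from WT in ATF6aKO were -0.45 for Col2a1, -1.85 (A_55_P1999532) and -2.15 (A_55_P2005269) for Col9a1, -0.20 for Col9a2, -3.56 for Col9a3 and -2.15 for Col27a1. In ATF6bKO they were -0.95 for Col2a1, -3.20 and -1.70 for Col9a1, -2.40 for Col9a2, -2.20 for Col27a1 and, now past the threshold, -2.79 for Col9a3 (adjusted p = 0.0116, against -0.07 as reported). Col11a1 stayed higher, at 2.25 in ATF6aKO (adjusted p = 0.0415) and 1.35 in ATF6bKO (0.156), and Col11a2 lower without passing, at -0.36 and -0.81. Of the genes named from other lists that passed against WT, 8 of 22 in ATF6aKO and 8 of 20 in ATF6bKO took the other direction there. A further 7 in ATF6aKO and 6 in ATF6bKO were no longer called, and 7 and 6 stayed the same. Between ATF6aKO and ATF6bKO the collagen differences there were -0.45 for Col9a1 (A_55_P2005269) and -0.77 for Col9a3, against the direction reported. In the green channel behind the knockout columns, the processed signal was 1 or less for 54.2% to 59.1% of spots, against 0% for WT. On any knockout array at most 2 of the 8 collagen probes were well above background in green. With 1 array left out, the uncalled differences of ATF6bKO from WT ranged from -0.66 to 0.53 for Col9a3 (positive without ATF6bKO replicate 2, at 0.53, or WT replicate 2, at 0.28) and from -0.14 to 0.96 for Col27a1 (negative without ATF6bKO replicate 1, at -0.14, or WT replicate 1, at -0.04).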
